A study of Mus musculus with 2 samples.

Results

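The genes described here encode the main families of amino acid transporters of the solute carrier (SLC) superfamily. They are the rows of the deposited gene table whose symbol begins with SLC1A, SLC3A, SLC6A, SLC7A, SLC36A, SLC38A or SLC43A and ends in a number, with 1 symbol of the SLC38A family left out and not analysed here. These were 57 of the 34376 rows. The SLC6A and SLC43A families also hold carriers of neurotransmitters, creatine, taurine and purine bases, so the set is wider than amino acids alone. Both groups came from E14 mouse embryonic stem (ES) cells of the 129P2/OlaHsd strain at passage 29, a line derived from mouse blastocysts, and both media held 2 mM glutamine and 0.1% 2-mercaptoethanol. The undifferentiated group had 15% serum, leukaemia inhibitory factor and a layer of mouse fibroblasts treated with mitomycin C, which were removed by adsorption before harvest. The differentiated group was cultured for 4.5 days without feeders or that factor, in 10% serum with 0.1 µM all-trans retinoic acid, and was harvested as a mixed population. Each group is 1 poly(A) RNA library read on 2 sequencing lanes, so an SD given here (n = 2 lanes) covers sequencing and read assignment, not cultures, and no test between the conditions exists.

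Cells cannot make essential amino acids, and every amino acid crosses membranes through carriers with overlapping substrates. SLC1, SLC6 and several SLC38 proteins use the sodium gradient to accumulate amino acids, whereas most SLC7 proteins exchange an amino acid inside for another outside or carry cationic amino acids along the membrane potential. The light chains among the SLC7 proteins reach the surface only as a pair with a heavy chain of the SLC3 family. In mouse ES cells, threonine and glutamine metabolism are known for their part in self-renewal, and uptake of leucine and arginine feeds the growth-controlling kinase complex mTORC1.

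The labelled cell states were checked by their markers. All 8 pluripotency markers were lower by 2-fold or more after differentiation, and their summed level was 3902 to 3907 RPKM in the undifferentiated lanes against 331 to 340 RPKM in the differentiated lanes. All 10 markers of extraembryonic endoderm were higher, with a sum of 8.45 to 9.89 against 568 to 595 RPKM. Of 9 fibroblast markers 8 reached 1 RPKM (5 higher, none lower), and the sum of all 9 was 208 to 216 against 546 to 547 RPKM. Fn1, less than 2-fold higher, held 181 and 273 RPKM of it on average. Only 3 of 8 neuron markers (2 lower, none higher) and 2 of 4 astrocyte markers (1 lower, none higher) reached 1 RPKM. Of 5 endothelium markers 4 did (1 lower, 1 higher). The sums were 43.3 to 45.1 against 17.5 to 19.0, 19.2 to 22.5 against 4.32 in both lanes and 17.3 to 22.3 against 7.29 to 8.76 RPKM. In undifferentiated cells 1 gene held most of each sum. Averages were 37.4 and 14.0 RPKM for Tubb3, 19.5 and 3.85 for Aldoc and 15.9 and 1.26 for Pecam1. Cdh5 was the higher endothelium marker, at 0.180 and 1.73 RPKM. No marker was at 0 in either library. The part of these cell types in the transporter differences was not tested, and in bulk RNA fewer cells of a type cannot be told apart from less RNA per cell.

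RPKM scales the reads of a gene by the length of its model and by the depth of the lane, so levels can be compared between genes. Of the 57 transporter genes, 31 reached 1 RPKM in at least 1 library. To each average 1 RPKM was added before the ratio of differentiated to undifferentiated cells was taken as a log2 value, a step that shrinks the ratios of genes with low levels. On that scale 10 of the 31 (32.3%) were higher by 2-fold or more after differentiation, against 19.1% of the 18019 genes that reached 1 RPKM. Another 4 were lower by 2-fold or more (12.9%, against 8.46% of all genes), and 17 lay between. The median log2 ratio of the 31 was 0.60, beside 0.12 over all genes at that level. Because the median of all genes lay above 0, centring on it moved every ratio by -0.12, and the split became 7 higher and 5 lower, beside 16.2% and 11.0% of all genes. The same split arose with trimmed-mean scaling, beside 15.9% and 11.7% of all genes. Equal RPKM sums gave 13 higher and 3 lower among 32 members at the minimum, beside 24.4% and 5.89% of all genes.

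By family, the 10 higher genes were 3 of 8 at this level in SLC38, 2 of 4 in SLC1, 2 of 3 in SLC43, 1 of 2 in SLC36, 1 of 7 in SLC7 and 1 of 6 in SLC6. Of the 4 lower genes, 2 were in SLC7 and 1 in SLC1. Summed over all members, the transporters stood at 546 ± 4.47 RPKM in the undifferentiated and 746 ± 6.35 RPKM in the differentiated library (SD, n = 2 lanes). Without Slc38a6, whose level is treated separately because it rests on an unusual transcript, the sums were 507 and 567 RPKM. The sums were not recomputed under other scalings, so the direction of a difference as small as that without Slc38a6 is not settled. As deposited, SLC7 was the only family besides SLC3 with a lower sum after differentiation, at 211 and 159 RPKM.

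**Figure D1:**
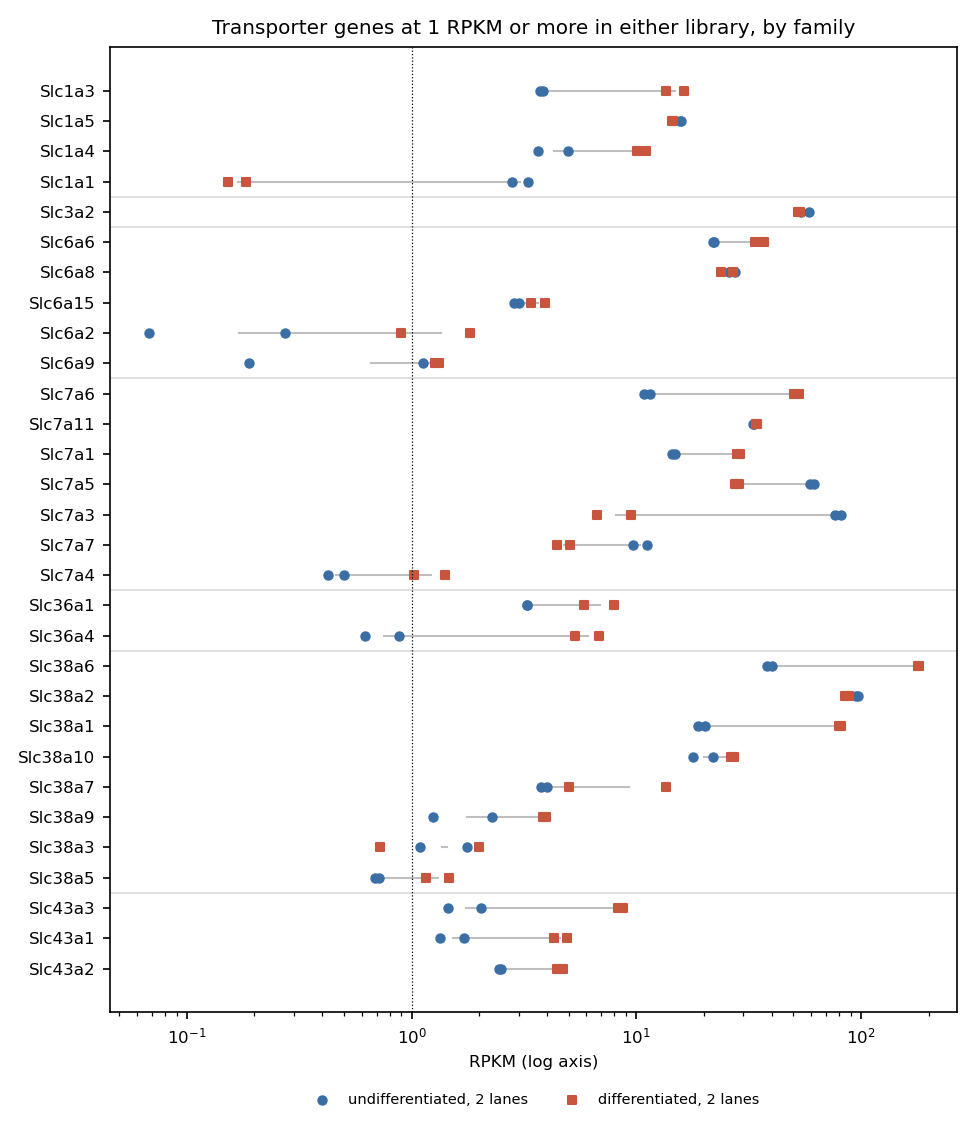
Level in RPKM (log axis) of 30 of the 31 transporter genes that reached 1 RPKM in either library, with both lanes of the undifferentiated (circles) and differentiated (squares) library, a line joining the averages, and a dotted line at 1 RPKM. Slc7a3 has its circles at 76.4 and 81.8 and its squares at 9.50 and 6.69, whereas Slc38a2, Slc3a2 and Slc7a11 have circles and squares close together.

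With 1 RPKM added, the lowest ratio of the set was that of an arginine and lysine carrier gene. Slc7a3 (chrX:98274549-98281359, minus strand, build mm9), which encodes the cationic carrier CAT3, stood at 76.4 and 81.8 RPKM in undifferentiated cells against 9.50 and 6.69 RPKM in differentiated cells. That is a log2 ratio of -3.14, and the lanes of the 2 libraries were far apart. It was the second most abundant member before differentiation, above 94.4% of all genes, and was no longer among the 12 most abundant afterwards. Slc7a1 (chr5:149138986-149211480, minus strand), the widespread carrier CAT1, went the other way, at 14.4 and 14.8 against 28.9 and 28.0 RPKM. Its log2 ratio of 0.92 was just under 2-fold, and the lanes did not overlap. The ratio was 1.15 under equal RPKM sums, 0.79 under centring and 0.75 under trimmed-mean scaling. Slc7a2, the CAT2 gene, was below 1 RPKM in both libraries.

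Within this set of carriers, CAT3 and CAT1 held opposite places before and after differentiation. CAT3 made up 83.8% and 84.2% of the summed level of these 3 genes before and 24.5% and 19.0% after it. CAT1 made up 15.8% and 15.3% against 74.4% and 79.5%. Such shares within a library do not depend on how libraries are scaled. The sum of the 3 carriers itself was 94.1 ± 4.23 RPKM before and 37.0 ± 2.59 RPKM after differentiation (SD, n = 2 lanes). These sets of carriers were put together after the values were seen and are descriptions. Of the Slc7a3 level, 77.1% and 56.7% lay in transcript models with the full coding length, and those models alone gave 61.0 and 4.59 RPKM, a log2 ratio of -3.47.

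The heavy chain CD98hc, encoded by Slc3a2 (chr19:8781372-8797859, minus strand), differed little. It stood at 58.6 and 54.3 RPKM against 53.4 and 52.3 RPKM, a log2 ratio of -0.09 whose sign depended on the scaling. The SLC7 light chains known to pair with it summed to 116 ± 1.48 RPKM and 120 ± 1.56 RPKM (SD, n = 2 lanes). What differed was the make-up of the light chains.

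Slc7a5 (chr8:124405046-124431594, minus strand) encodes LAT1, which brings leucine and other large neutral amino acids in. Its level was 61.9 and 59.3 RPKM before and 27.5 and 28.5 RPKM after differentiation, a log2 ratio of -1.08. Under equal RPKM sums its ratio was less than 2-fold. Slc7a6 (chr8:108692775-108722604, plus strand) encodes y+LAT2, which exports cationic amino acids such as arginine in exchange for neutral ones. It had 11.5 and 10.9 RPKM against 53.0 and 50.4 RPKM, a log2 ratio of 2.11 and 4.62 times the undifferentiated level. Slc7a7 (chr14:54989128-55036536, minus strand) encodes the closely related y+LAT1. Its 9.72 and 11.1 RPKM against 4.46 and 5.09 RPKM gave a log2 ratio of -0.98, just inside 2-fold. That ratio passed 2-fold under centring and under trimmed-mean scaling and was -0.78 under equal RPKM sums. Its models with the full coding length averaged only 0.0485 and 0.209 RPKM, and their lanes overlapped, so they give no direction. Nearly all of the Slc7a7 level (99.5% and 95.6%) lay in transcript models without a match in GENCODE. The row shares 226 bases with Oxa1l on the opposite strand, at 41.2 and 35.6 RPKM.

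LAT1 made up 53.1% and 51.8% of the light chain level before and 22.7% and 24.0% after differentiation. For y+LAT2 the shares were 9.89% and 9.48% against 43.8% and 42.4%, and for y+LAT1 8.33% and 9.72% against 3.68% and 4.28%. Per y+LAT2 transcript there were 5.41 LAT1 transcripts before and 0.542 after differentiation by RPKM. The share of Slc7a11 stayed at 28.5% and 28.8% against 28.1% and 28.9%. Slc7a8 (LAT2) and Slc7a10 (Asc-1) were below 1 RPKM on average in both libraries.

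**Figure D2:**
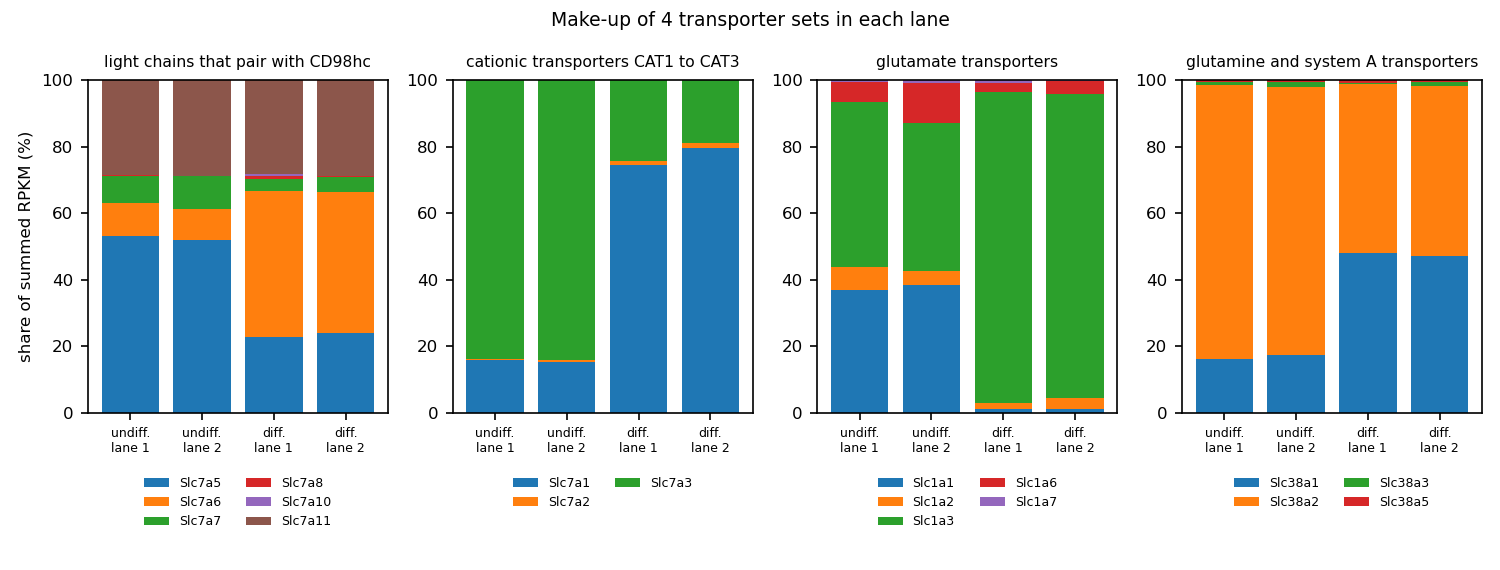
Share (%) of each gene in the summed RPKM of 4 sets of carriers, as stacked bars for each of the 4 lanes. In the light chain set the Slc7a5 part shrinks from 53.1% and 51.8% to 22.7% and 24.0% while the Slc7a6 part widens to 43.8% and 42.4%, and the Slc7a11 part keeps its size.

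Slc7a11 (chr3:50168858-50247535, minus strand) encodes xCT, which takes up cystine for glutathione synthesis in exchange for glutamate. Its values were nearly equal in all 4 lanes, at 33.3 and 33.0 RPKM in the undifferentiated and 34.1 and 34.4 RPKM in the differentiated library. Both media contained 2-mercaptoethanol, an agent known to ease cystine uptake. Slc7a11 is also a known target of the transcription factor ATF4 through amino acid response elements, so the promoters in the RefSeq table (assembly GRCm38.p6, 250 bases before to 50 after each start site) were searched for that element. The letters searched were TGATGNAAN on both strands. The 41 members in the table have 60 promoters, of which 4 (6.67%), from 3 genes, held a match, beside 3.95% of all 32851 promoters of this length. For each of the 3 genes 1 promoter is shown with the matches in capitals, and a second Slc7a7 promoter that overlaps the first holds its later match too. They are Slc7a11 at chr3:50443564-50443863, Slc1a4 at chr11:20332664-20332963 and Slc7a7 at chr14:54417895-54418194, all on the minus strand of GRCm38.
Slc7a11: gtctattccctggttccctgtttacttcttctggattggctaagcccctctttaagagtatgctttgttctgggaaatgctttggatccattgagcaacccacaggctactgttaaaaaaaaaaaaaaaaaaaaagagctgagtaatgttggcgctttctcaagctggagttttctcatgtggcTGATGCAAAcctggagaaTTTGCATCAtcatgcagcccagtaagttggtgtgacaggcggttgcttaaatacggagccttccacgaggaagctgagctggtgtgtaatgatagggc
Slc1a4: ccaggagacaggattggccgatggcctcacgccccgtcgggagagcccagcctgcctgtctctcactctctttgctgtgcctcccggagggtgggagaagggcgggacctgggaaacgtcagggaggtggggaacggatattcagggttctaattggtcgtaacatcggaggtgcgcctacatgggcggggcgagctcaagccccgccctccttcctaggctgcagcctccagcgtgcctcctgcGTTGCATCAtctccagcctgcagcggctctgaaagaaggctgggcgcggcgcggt
Slc7a7: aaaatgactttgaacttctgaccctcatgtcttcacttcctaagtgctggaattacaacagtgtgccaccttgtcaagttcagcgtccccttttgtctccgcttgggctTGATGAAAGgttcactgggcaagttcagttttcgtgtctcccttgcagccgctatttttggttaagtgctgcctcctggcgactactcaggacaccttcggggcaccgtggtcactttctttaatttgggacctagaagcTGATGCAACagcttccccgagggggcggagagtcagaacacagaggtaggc

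The Slc7a11 promoter held the letters at -66 and, on the opposite strand, at -48 from the start site. That of Slc1a4 held them at -5, also on the opposite strand, and the first promoter of Slc7a7 at -141 and -1. These 3 genes had log2 ratios of 0.04, 1.12 and -0.98, so the genes with a match lay near 0, above 0 and below 0. The DR5 retinoic acid response element was searched on both strands in a single strict form, with no variant letters allowed in its repeats. No member promoter held that form, and only 3 of all 32851 promoters did (0.00913%). A form this rare would hardly be met in 60 promoters, so its absence cannot show whether the members lack such elements. Looser forms of the element were not searched. The antioxidant response element (TGACNNNGC, both strands) matched in 11 of the 60 promoters (18.3%), from 9 genes, and in 12.4% of all promoters. Of the 31 genes at 1 RPKM, 19 had a promoter in the table. The others, among them Slc7a3, Slc7a5 and Slc38a1, could not be searched for any of these elements.

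Among the sodium-driven glutamate carriers, 2 genes stood in opposite positions. Slc1a1 (chr19:28909539-28988450, plus strand), the gene of EAAT3, which takes up glutamate, aspartate and cysteine, had 2.80 and 3.31 RPKM against 0.184 and 0.153 RPKM, a log2 ratio of -1.79. Without the added 1 RPKM its level was 18.1 times lower, against 9.77 times for Slc7a3, and with 0.1 RPKM added their log2 ratios were -3.55 and -3.27. A row inside it on the opposite strand, ENSMUSG00000089993, is listed at 1226 and 961 RPKM, and reads of both strands could not be separated. Slc1a3 (chr15:8584124-8660807, minus strand), the gene of the glial carrier EAAT1 or GLAST, had 3.75 and 3.86 RPKM against 16.4 and 13.5 RPKM, a log2 ratio of 1.73. The lanes of the libraries did not overlap for either gene. EAAT1 made up 49.6% and 44.7% of the summed level of the 5 glutamate carriers before and 93.6% and 91.5% after differentiation, and EAAT3 37.0% and 38.3% against 1.05% and 1.03%. Of the Slc1a3 level, 27.4% and 25.0% lay in full-length coding models. Slc1a2, Slc1a6 and Slc1a7, the genes of EAAT2, EAAT4 and EAAT5, were below 1 RPKM on average.

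The other SLC1 members exchange small neutral amino acids. Slc1a5 (chr7:17366695-17383623, plus strand), the gene of the glutamine exchanger ASCT2, had 15.9 and 15.6 RPKM against 14.6 and 14.4 RPKM. Its log2 ratio of -0.11 changed sign between scalings. Slc1a4 (chr11:20202183-20232716, minus strand), the gene of the alanine, serine, cysteine and threonine exchanger ASCT1, had 4.98 and 3.66 RPKM against 11.0 and 10.1 RPKM. Its log2 ratio of 1.12 fell under 2-fold when ratios were centred on the median of all genes. ASCT1 made up 23.9% and 19.0% of both exchangers together before and 42.9% and 41.3% after differentiation.

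**Figure D3:**
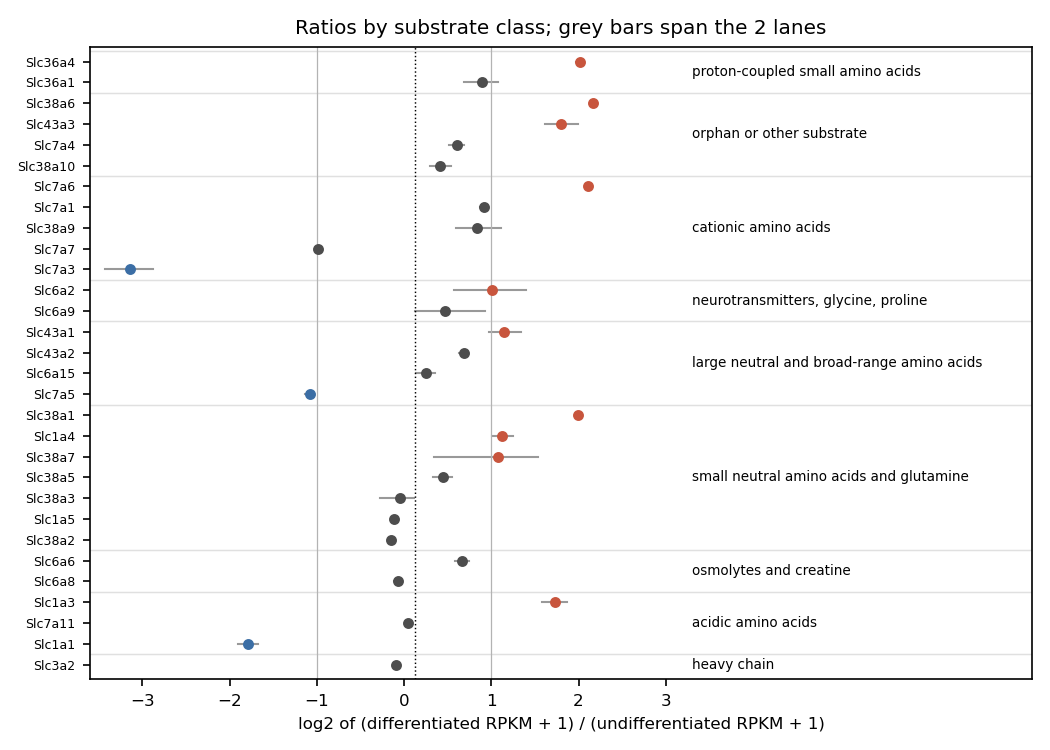
log2 ratio of differentiated over undifferentiated RPKM (1 added to each) for 30 of the 31 genes by substrate class, with the average as a point (red for higher by 2-fold or more, blue for lower, dark grey between), a bar from lane 1 to lane 2, solid lines at 2-fold and a dotted line at the median of all genes, 0.12. The classes of cationic, acidic and large neutral amino acids each hold at least 1 red and 1 blue point.

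The glutamine carriers of the SLC38 family are known as system A and system N. Slc38a2 (chr15:96517823-96530129, minus strand), the gene of SNAT2, whose RNA is known to be induced by amino acid shortage, was the most abundant member in undifferentiated cells. It had 96.6 and 95.2 RPKM there and 84.7 and 88.4 RPKM in the differentiated lanes. Its log2 ratio was -0.15, and the sign turned under equal RPKM sums. Slc38a1 (chr15:96401849-96473344, minus strand), the gene of the glutamine carrier SNAT1 and the neighbour of Slc38a2 at 44478 bases, had 18.9 and 20.3 RPKM against 79.9 and 81.7 RPKM. Its log2 ratio was 1.99, and the lanes within a library differed by less than 2 RPKM. By the level of the whole gene, SNAT2 outnumbered SNAT1 by 4.89 times before differentiation, whereas the ratio of their levels was 1.07 afterwards. In models with the full coding length alone, Slc38a2 had averages of 95.9 and 86.6 RPKM and Slc38a1 of 9.11 and 20.9 RPKM. There Slc38a2 stayed well above Slc38a1 in both libraries. Slc38a3 (SNAT3) had averages of 1.43 and 1.36 RPKM and Slc38a5 (SNAT5) of 0.70 and 1.32 RPKM.

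The Slc38a1 level was split unevenly over transcript models. Models with the full coding length summed to 5.89 and 12.3 RPKM against 20.2 and 21.6 RPKM, a log2 ratio of 1.11. The rest, 53.5% and 74.1% of the level, lay in models without a GENCODE match. The largest of these, with a first exon inside the gene, carried 61.6% and 27.5% of the level before and 68.3% and 71.0% after differentiation. Its share differed by more between the undifferentiated lanes than between the averages of the libraries (44.0% and 69.6%), although both lanes hold the same library.

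Slc38a6 (chr12:74387766-74455036, plus strand), the gene of the little-studied carrier SNAT6, had the highest level after differentiation and, with 1 RPKM added, the highest ratio of the set. With 0.5 RPKM added, Slc36a4 exceeded it, at 2.39 against 2.18. It stood at 40.2 and 38.0 RPKM against 179 and 180 RPKM, a log2 ratio of 2.17, and was above 97.5% of all genes in the differentiated library. Little of that level lay in the transcript model of the full carrier. The 16-exon model with the full coding sequence (ENSMUST00000140523, 457 codons) had 0.884 and 1.21 RPKM against 2.92 and 3.93 RPKM, which is 2.68% and 1.91% of the gene's level and a log2 ratio of 1.11. The 5-exon model ENSMUST00000153941, with 125 codons and a last exon of 3531 bases, had 32.7 and 31.3 RPKM against 148 and 175 RPKM. Both models share their first 4 exons in GENCODE, and the sequences show where they part, with the last 15 bases of exon 4 in lower case and the first 15 bases of exon 5 in capitals (chromosome 12 of GRCm38, exon 4 ending at 73310197).
Full-length model: ggattacctggaaagGTGGTGGTGGCAGGC
Short model: ggattacctggaaagAGCTGTTATTAGACG

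Exon 5 of the full-length model is a coding exon of 40 bases at 73318977 to 73319016. In the short model it is the last exon, at 73310990 to 73314520, and holds 9 coding bases. Whether the long last exon is transcribed with the gene's first exons cannot be told from these tables, which give levels per model and not per junction. Both models were higher after differentiation in both lanes, but the RNA that encodes the full carrier is covered by the lower values.

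**Figure D4:**
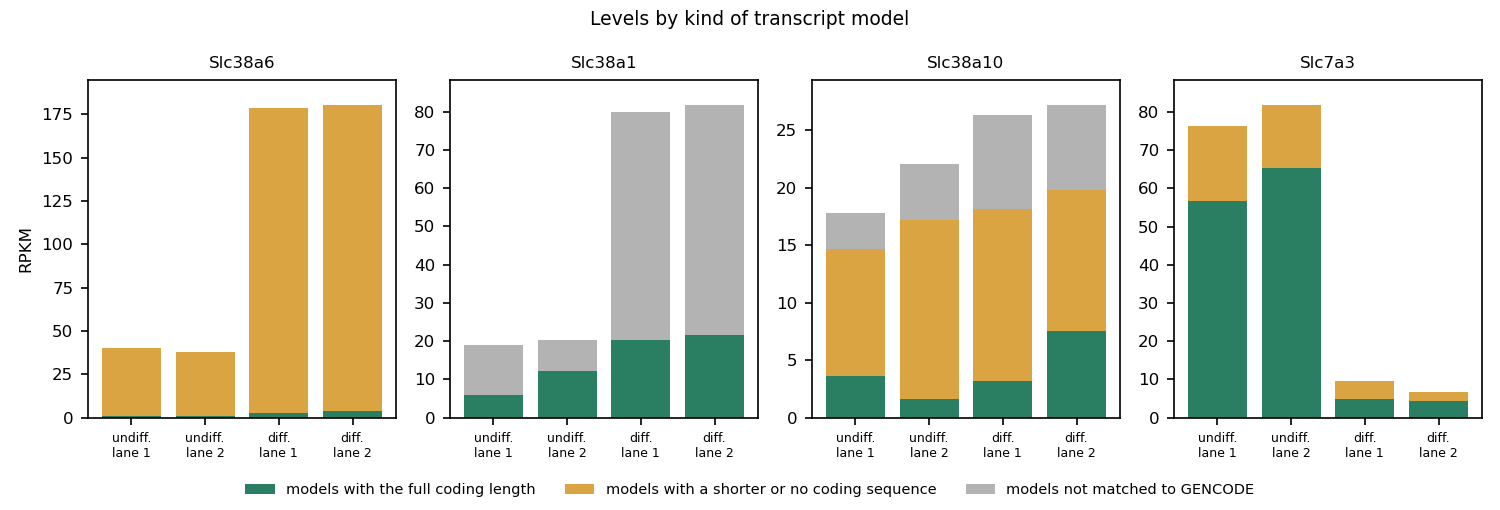
Level in RPKM of Slc38a6, Slc38a1, Slc38a10 and Slc7a3 in each lane, stacked by transcript models with the full coding length, with a shorter or no coding sequence, and without a GENCODE match. The full-length part of Slc38a6 is 0.884 and 1.21 RPKM before and 2.92 and 3.93 RPKM after differentiation. The whole bars are 40.2 and 38.0 RPKM before and 179 and 180 RPKM after it.

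Among the remaining SLC38 members, the products of Slc38a7 and Slc38a9 are known from lysosomes. Slc38a7 (chr8:98359820-98377439, minus strand), the gene of the lysosomal glutamine exporter SNAT7, had 4.03 and 3.75 RPKM against 13.5 and 5.02 RPKM. Its log2 ratio of 1.07 rests on lane 1, since lane 2 alone gave 0.34. Gm3599, a row inside it on the opposite strand, stood at 2.89 and 11.7 RPKM, and the row BC031853 over nearly the same interval had 2.31 and 4.72 RPKM, the values of the full-length Slc38a7 models. Slc38a9, the gene of the lysosomal arginine sensor of mTORC1, had averages of 1.77 and 3.92 RPKM, a log2 ratio of 0.83. Slc38a10 (chr11:119965265-120012665, minus strand), little studied, had 17.8 and 22.0 RPKM against 26.4 and 27.2 RPKM and a log2 ratio of 0.41.

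Of the 3 SLC43 genes, 2 were higher by 2-fold or more and 1 lay between. Slc43a1 (chr2:84679007-84703751, plus strand), the gene of LAT3, a facilitator of leucine and other large neutral amino acids, had 1.34 and 1.71 RPKM against 4.90 and 4.30 RPKM, a log2 ratio of 1.15. With lane 2 alone it was 0.97, just under 2-fold. Slc43a2, the gene of the related LAT4, had averages of 2.48 and 4.59 RPKM, a log2 ratio of 0.68. Slc43a3 (chr2:84776736-84798666, plus strand), the gene of a purine base carrier, had 2.04 and 1.45 RPKM against 8.33 and 8.77 RPKM, a log2 ratio of 1.80. Together with LAT2, the facilitators did not reach the LAT1 level. LAT1 made up 93.5% of the large neutral carriers LAT1 to LAT4 before and 73.9% after differentiation, and their sum was 64.8 ± 1.60 and 38.0 ± 0.115 RPKM (SD, n = 2 lanes).

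The carriers of the SLC36 family move amino acids, in part out of lysosomes. Slc36a4 (chr9:15514182-15546828, plus strand), the gene of the proline and tryptophan carrier PAT4, had 0.623 and 0.881 RPKM against 5.37 and 6.80 RPKM, a log2 ratio of 2.02 and 8.09 times the undifferentiated level without the added 1 RPKM. Slc36a1, the gene of the lysosomal carrier PAT1, had averages of 3.26 and 6.92 RPKM, a log2 ratio of 0.89. PAT4 made up 17.4% of the family's level before and 44.5% after differentiation. Slc36a2 and Slc36a3 were below 1 RPKM.

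In the SLC6 family the abundant genes serve osmolytes and energy metabolism. Slc6a6 (chr6:91634061-91709057, plus strand), the taurine carrier gene, had 21.9 and 22.2 RPKM against 37.2 and 33.7 RPKM, a log2 ratio of 0.66 with no overlap of lanes. Slc6a8 (chrX:70918472-70927841, plus strand), the creatine carrier gene, had 25.8 and 27.5 RPKM against 23.8 and 27.0 RPKM, and its lanes overlapped. Its log2 ratio of -0.07 changed sign between scalings.

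Carriers of neurotransmitters were near the lower limit. Slc6a2 (chr8:95483978-95525566, plus strand), the noradrenaline carrier gene, had 0.0676 and 0.274 RPKM against 1.81 and 0.898 RPKM. Its log2 ratio of 1.01 fell under 2-fold with lane 2 alone and under 3 of 4 scalings. Slc6a9, the gene of the glycine carrier GlyT1, had averages of 0.657 and 1.29 RPKM, and Slc6a15, the gene of a branched-chain amino acid and proline carrier of brain, 2.93 and 3.66 RPKM. Slc7a4, a relative of the cationic carriers without a known substrate, had 0.464 and 1.22 RPKM.

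The other 26 genes stayed below 1 RPKM on average in both libraries, between 0.0138 and 0.874 RPKM. Among them were Slc3a1 and Slc7a9, which form the cystine and dibasic amino acid carrier of the kidney, and the epithelial carriers Slc6a14, Slc6a18 and Slc6a19. Neurotransmitter and related carriers in this class were Slc6a3 for dopamine, Slc6a4 for serotonin, Slc6a5 for glycine, Slc6a7 for proline, Slc6a11 and Slc6a13 for GABA, Slc6a12 for betaine and GABA and Slc6a17 of synaptic vesicles. The class was completed by Slc1a2, Slc1a6, Slc1a7, Slc6a16, Slc7a2, Slc7a8, Slc7a10, Slc7a14, Slc7a15, Slc36a2, Slc36a3, Slc38a8 and Slc38a11. Of the 26, 5 had a lane at 0, and the highest single lane was 1.02 RPKM.

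Promoter use was compared for the 9 members with at least 2 promoters and 5 RPKM in both libraries. In 3 of them a promoter's share of the gene's level differed by 20 percentage points or more, a size that 11.5% of 4579 genes reached. In Slc7a3 a 367-base non-coding model, ENSMUST00000126282, went from 0.93% to 32.2% of the level, at 1.48 and 0 RPKM against 3.23 and 1.97 RPKM. Its share was 34.0% and 29.5% in the differentiated lanes. In Slc38a10 the promoter of the coding models went from 44.7% and 37.8% to 47.5% and 87.3% in the 2 lanes. The case of Slc38a1 is described above, and neither it nor Slc38a10 reached 20 points in lane 1 alone.

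Genes that make or sense amino acids were counted in the same way, beside 19.1% higher and 8.46% lower over all genes. Of 27 genes of amino acid synthesis and interconversion, 11 were lower and 4 higher, with a median log2 ratio of -0.45. The lowest was Tdh, the threonine dehydrogenase on which mouse ES cells are known to depend, at 214 and 210 RPKM against 10.3 and 13.6 RPKM. The highest was Oat, ornithine aminotransferase, at 14.6 and 15.5 against 64.0 and 64.6 RPKM.

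Of 25 genes of amino acid sensing by mTORC1, 3 were higher and 22 lay between, with a median of 0.29. With lane 2 alone only Sesn3 was higher, and the call of Rptor, chosen for mention after its values were seen, rests on 1 lane, at 13.3 and 13.4 against 55.7 and 13.6 RPKM. Sesn3, a stress-induced sestrin that restrains mTORC1, was highest at 7.64 and 8.45 against 59.1 and 59.4 RPKM, and Rragb, a Rag GTPase gene, lowest with averages of 8.00 and 4.17 RPKM. In the amino acid shortage response 4 of 14 genes were higher and 1 lower, with a median of 0.61. The highest, Ddit3, which encodes the stress factor CHOP, had 6.65 and 9.50 against 33.1 and 27.4 RPKM. The lowest, Asns, which encodes asparagine synthetase, had 128 and 125 against 41.7 and 51.5 RPKM, so that known targets of the same response stood in opposite positions.

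Of 13 genes of glutathione synthesis and use, 1 was higher and 12 lay between, with a median of 0.06. Keap1, the inhibitor of the antioxidant factor NRF2, was highest with averages of 7.89 and 18.3 RPKM, and Gpx4, a glutathione peroxidase gene, lowest with 785 and 394 RPKM. Among 17 other amino acid carriers at 1 RPKM, 3 were higher and 14 lay between, with a median of 0.08. Slc25a22, a mitochondrial glutamate carrier gene, was highest at 5.12 and 4.77 against 21.4 and 27.1 RPKM, and Slc25a39, the gene of a mitochondrial carrier for glutathione, lowest with averages of 93.7 and 56.4 RPKM.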

How the data were processed

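Poly(A) RNA of 2 mouse ES cell cultures was sequenced as 36-base single-end reads, 1 library per group on 2 lanes, per the labels' protocols. The authors deposited gene, promoter and transcript tables with a value per lane and an average. The tables name no unit. The deposited values were read as RPKM because value times length of single-exon genes fell on whole reads within 5% for 82.4% to 82.7% of low values, which implies 32.0 to 37.8 reads per RPKM in a 1 kb model of a lane. Build mm9 is named in the submitters' processing notes. For the aligner, counting program and annotation, a name is not given in the sources used here. Since the kit does not record the strand, overlapping genes share reads, and 17 of the 31 members at 1 RPKM overlap another row.

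Symbols, capitals in the tables, are written in mouse style. Ratios used a pseudocount of 1 RPKM and a minimum of 1 RPKM in either library (Python 3.11.15, pandas 2.3.3, numpy 2.4.6), and scripts were tested on simulated data. Lane values were printed for members at 10 RPKM in either library or past 2-fold, averages for others at the minimum, and the highest and lowest gene of each list. A further member at the minimum is counted but not reported here. Members, lists and this rule were chosen with earlier results of these data known. Transcript models were matched by identifier to GENCODE M21 (GRCm38), 122 of 152, and counted as full-length at 90% of the longest coding length.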

Additional observations from a re-analysis of the deposited data

How the results depend on the processing

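The counts of 10 genes higher and 4 lower ranged from 7 to 13 and from 3 to 5 over the other pseudocounts, scalings and single lanes. Over all genes the shares ranged there from 15.9% to 24.7% higher and from 5.89% to 11.7% lower. At a 1.5-fold limit 16 of the 31 were higher and 5 lower, beside 31.6% and 20.5% of all genes. At a 3-fold limit 6 were higher and 2 lower, beside 9.15% and 3.15% of all genes. With a minimum of 5 RPKM, 8 of 20 members were higher and 2 lower, beside 20.6% and 9.05% of all genes. The median log2 ratio of 0.60 became 0.86 with a pseudocount of 0.1 RPKM, 0.077 over all 57 members with no minimum, and 0.33 with lane 2 alone. The number of genes with a promoter difference fell from 3 to 1 with lane 1 alone and to 1 at 30 percentage points. The cause of these differences was not tested, apart from the fewer genes or stricter limits that some settings impose. Scalings moved the median of all genes by -0.12 (centring and upper quartile), -0.16 (trimmed mean) and 0.22 (equal RPKM sums). Upper-quartile scaling gave 8 higher and 5 lower, beside 16.7% and 10.6% of all genes. Slc1a4 lost its call under centring and trimmed-mean scaling, Slc6a2 and Slc38a7 under these and upper-quartile scaling, and Slc7a5 under equal RPKM sums. Lane 2 alone ended the calls of Slc38a7, Slc43a1 and Slc6a2. RefSeq-named transcript models alone, an alternative chosen after seeing the data, gave 8 higher and 4 lower among 25 members at the minimum. The shares over all genes were 22.8% and 7.81% with these models. Their median was 0.77, beside 0.26 over all genes. The log2 ratios were 1.11 for Slc38a6, 1.11 for Slc38a1, 1.21 for Slc1a3, -0.25 for Slc7a7 and -1.84 for Slc7a3. Each lane alone, also added after seeing the data, gave 3 and 1 higher genes for the mTORC1 list. No called gene changed sign under any setting. No paired analysis was possible because each group is 1 library. With 1 library per group, the spread between cultures is unknown, and at 1 RPKM a 1 kb model rests on 32.0 to 37.8 reads of a lane.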

Other observations

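Several members lie beside each other in the genome, and neighbours did not always share a ratio. Slc38a1 and Slc38a2, 44478 bases apart on chromosome 15, had log2 ratios of 1.99 and -0.15. Slc43a1 and Slc43a3, 72984 bases apart on chromosome 2, had 1.15 and 1.80. Slc36a1 had 0.89 and its neighbour Slc36a2, at 19262 bases on chromosome 11, 0.33 from levels below 1 RPKM.

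Transcript models matter for how these levels are read. Of the 31 genes at 1 RPKM, 10 had at least 90% of their level in full-length coding models in both libraries, among them Slc1a4, Slc3a2, Slc7a1, Slc7a5, Slc7a11 and Slc38a2. In 11 genes less than 50% of the level lay in such models in at least 1 library. Slc6a15 had 4.16% and 4.24% there and Slc43a2 20.8% and 18.4%, with 95.8% and 95.8% and with 57.6% and 49.9% in models without a GENCODE match. Slc6a8 had 38.4% and 36.2% there and 33.3% and 18.4% in models without a match. Its matched models with a shorter or no coding sequence held 28.3% and 45.4%. Such shares were not computed over all genes, so the counts of 10 and 11 cannot be read as particular to the transporters.

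The rows of Ncoa3 and Galnt2 span 117229066 and 4434884 bases in the gene table and cover Slc43a1, Slc43a3 and Slc7a5. Spans of that size are those of the deposited rows, and their effect on the transporter values was not tested.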
